A study of Mus musculus with 12 samples.

Results

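The 10 genes followed here belong to the bone morphogenetic protein (BMP) pathway and were taken by name from the count table: the ligand Bmp4, the receptor Bmpr1a, the inhibitors Bambi, Smad6 and Smad7, the transducer Smad9 and the target genes Id1, Id2, Id3 and Id4. Each name matched 1 row, giving 10 of 55421 gene rows, and 8 of the 10 were among the 16152 genes with enough counts to be tested; Id4 and Smad9 were not. The samples were organoids, 3-dimensional epithelial cultures grown from the stomach glands of wild-type mice, from the corpus (the body of the stomach) and the antrum (its outlet end). There were 3 lines of each region (8025, 8026 and 8028), used after at least 3 passages, and each line gave 1 vehicle and 1 inhibited library, so that 12 libraries fell into 4 groups of 3. Vehicle cultures received the solvent DMSO in normal medium, of which 50% was L-WRN, medium conditioned by cells secreting Wnt, R-spondin and Noggin. Inhibited cultures received the tankyrase inhibitor XAV939 (labelled 1 mM), which dampens Wnt signalling, in medium without Wnt and R-spondin but with added Noggin-1 at 100 ng/mL, for 24 h from day 4 after passage. Noggin, a secreted BMP antagonist, was thus present in both arms, at a level that the labels do not state for the conditioned medium. The labels give no share of L-WRN for the inhibited medium. XAV939, the loss of Wnt and R-spondin, the change in the source of Noggin and any other change in the conditioned medium cannot be told apart. Serum made up 20% of the corpus and 10% of the antral growth medium, so the regions also differ in serum.

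BMP ligands bind pairs of type I and type II receptor kinases, which phosphorylate the transducers SMAD1, SMAD5 and SMAD9; these join SMAD4 and enter the nucleus. The Id genes are classic direct targets of this route, and their proteins bind E proteins and keep them from DNA, while Smad6, Smad7 and Bambi are induced as brakes on the same signal. In the stomach and intestine BMP ligands come largely from the mesenchyme, and the culture media of gland organoids hold Noggin to block them. Bambi and some other genes of the pathway are also known as targets of Wnt signalling.

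Levels are given as CPM, a gene's count relative to the TMM-scaled library total, with the libraries of lines 8025, 8026 and 8028 in that order. Library totals ran from 18858022 to 31656696 counts, and 3 counts, the most that a reading of 0 allows, equalled 0.0889 to 0.177 CPM; intervals from counts cover counting error only. Ribosomal RNA-like genes made up 17.2% of counts in the antral vehicle library of line 8025 and 6.87% in that of line 8028, against 0.839% to 3.45% in the other 10 libraries. Lgr5, a receptor for R-spondin, changed by -5.56 ± 0.368 (log2, SE) in corpus and -4.90 ± 0.348 in antrum, and Axin2, a feedback gene of Wnt signalling, by -2.88 ± 0.434 and -2.61 ± 0.425; all 8 Wnt targets used as a check of the treatment fell in both regions. Epithelial markers were abundant, with Epcam at 525 ± 15.6 and Cdh1 at 922 ± 39.4 CPM in corpus vehicle libraries (SD, n = 3).

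With Wnt inhibition Id3 fell in corpus and in antrum, and so did Bambi at a low level of expression. None of the 8 tested members was called higher in the main fit, which has no block on the line. In that fit Id1, Id2, Smad6, Smad7, Bmpr1a and Bmp4 did not pass in either region. Bmp4 was lower in all 3 lines of each. In corpus 2 of the 8 were called lower and 0 higher by edgeR's quasi-likelihood test with Benjamini-Hochberg adjustment over all genes at 0.05, where 15.4% of all tested genes were lower and 15.5% higher. In antrum the members again gave 2 lower and 0 higher, where 13.4% of all tested genes were lower and 16.3% higher. A paired fit with a block on the line also called Bmp4 lower in both regions and Id1 lower in corpus. It gave 4 members lower in corpus and 3 in antrum, where 23.7% and 20.2% of all tested genes were lower. At an unadjusted p of 0.05 the main fit called 4 members in corpus (Id3, Bambi and Bmpr1a lower, Id2 higher). In antrum it called 3 (Id3, Bambi and Bmp4 lower). Over all 16152 tested genes it called 6755 in corpus and 6658 in antrum at that unadjusted p. At the adjusted threshold DESeq2 and limma-voom also called 0 members higher. Id2 in corpus was called higher only when either or both corpus libraries of line 8028 were left out. The median log2 change of the 8 was -0.20 in corpus and -0.17 in antrum, beside -0.0374 and -0.0439 over all tested genes. With 8 genes in the list, these shares were not tested against the background. In bulk RNA, fewer cells of a type and less RNA per cell cannot be told apart, here or in any change that follows.

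**Figure D1:**
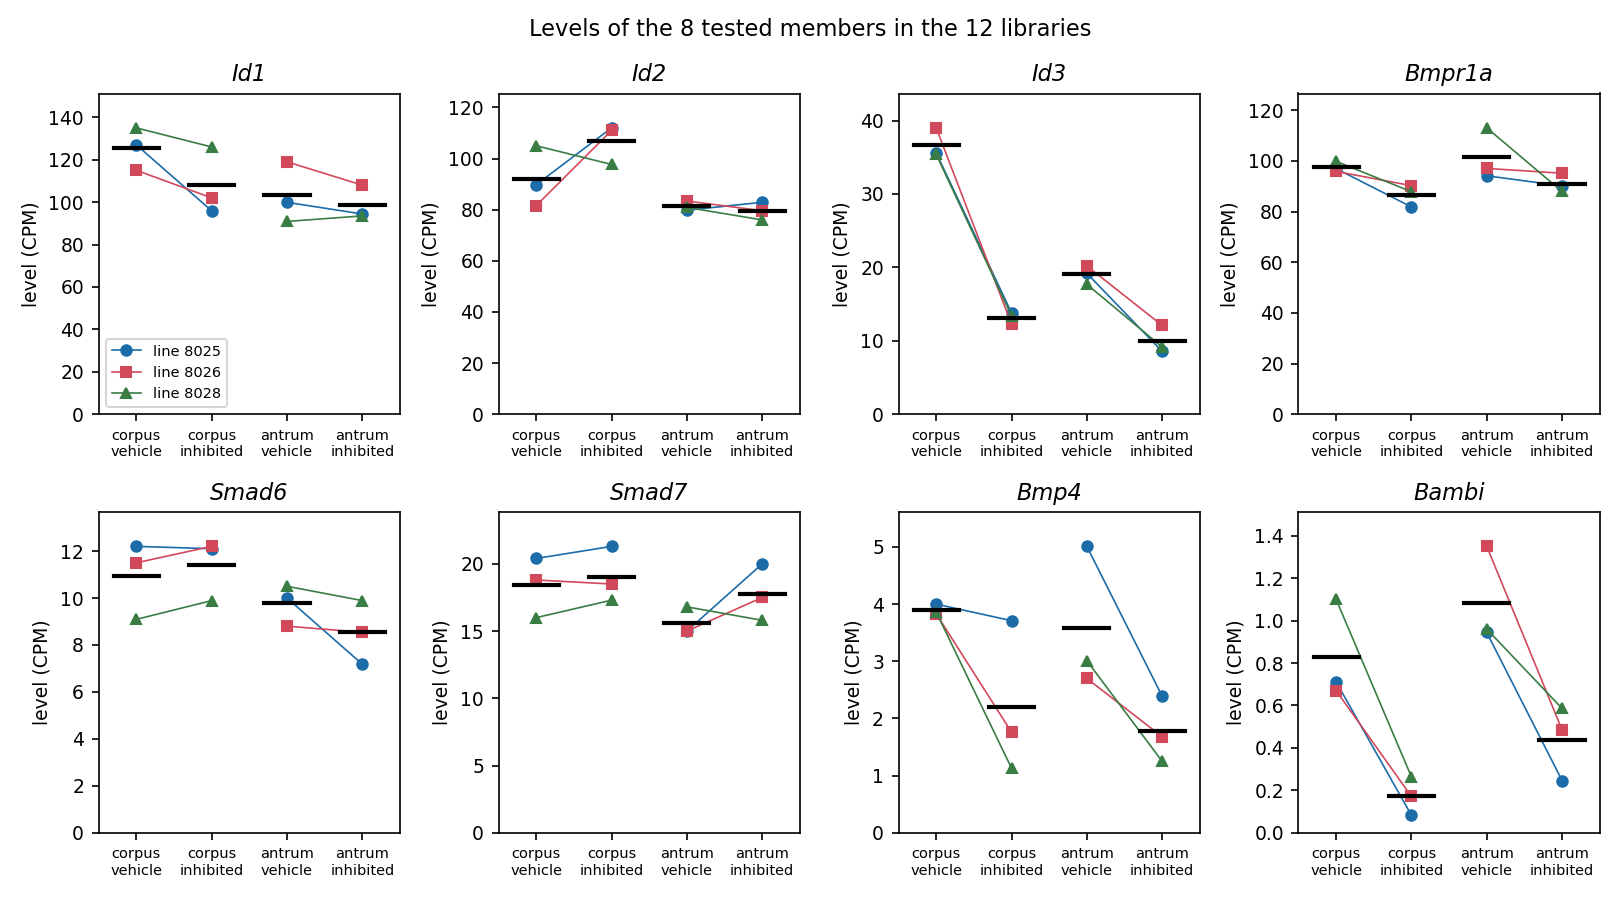
Levels of the 8 tested members in CPM (vertical axes, linear and from 0, each with its own range) in the 4 groups; points are single libraries, thin lines join the 2 libraries of a line, and black bars are group means. Id3 runs from 35.4 to 39.0 CPM in corpus vehicle and from 12.3 to 13.8 CPM in corpus inhibited libraries, and Bambi stays at or below 1.35 CPM in every library.

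Bmp4 (ENSMUSG00000021835, chromosome 14 from 46383520 to 46390669 on GRCm38) encodes a secreted ligand that binds BMPR1A. In corpus it stood at 4.00, 3.83 and 3.86 CPM in vehicle libraries and at 3.71, 1.76 and 1.13 CPM in inhibited ones. Every inhibited library lay below every vehicle library, but line 8025 only slightly. The log2 change was -0.83 ± 0.389 (SE, 95% interval -1.68 to 0.03) with an edgeR adjusted p of 0.130, so Bmp4 did not pass. It passed in a paired fit with a block on the line (-0.93, adjusted p 0.0234), with limma-voom (0.0490), with total counts as the scale (0.0498), when inhibited line 8025 was left out (-1.42, adjusted p 0.0123) and when that line was left out entirely (0.0303).

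In antrum Bmp4 stood at 5.01, 2.70 and 3.01 CPM with vehicle and at 2.39, 1.68 and 1.25 CPM after inhibition. The groups again did not overlap, and line 8025 was the highest in each. The log2 change was -0.99 ± 0.399 (SE, 95% interval -1.86 to -0.11) with an edgeR adjusted p of 0.0849, and it passed in the paired fit with a block on the line (adjusted p 0.0207) and with only the 6 antral libraries in the fit (0.0429). By summed counts Bmp4 went from 371 to 161 in corpus, a depth-corrected 1.80-fold lower level (95% counting interval 1.49 to 2.18), and in antrum from 239 to 145, 1.87-fold lower (1.51 to 2.31). The gene shares 1764 bases with Gm15222 and 89 with Gm15217 on the opposite strand, and without a stated strand in the counting reads from these cannot be told apart.

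Markers of fibroblasts and smooth muscle were read beside Bmp4, since mesenchyme is its main source in the gut. Their summed level over 11 markers was 1.27 to 2.34 CPM in corpus vehicle and 1.28 to 1.81 CPM in corpus inhibited libraries. In antrum it was 1.91 to 2.65 CPM with vehicle and 0.821 to 0.951 CPM after inhibition. Of the 11 markers 8, 9, 8 and 7 had any count in the 4 groups, and the matrix genes Dcn, Lum and Col3a1 were at 0 in both antral groups. Only 3 of the markers could be tested, of which 2 were called lower in antrum and 0 in corpus. On the log2 scale the 2, Col1a1 and Vim, fell by 1.74 and 2.66 in antrum (edgeR adjusted p 0.00224 and 0.0116). They stood at 0.28 and -0.65 in corpus without passing. The part of these cells in the Bmp4 values was not tested.

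Bmpr1a (ENSMUSG00000021796, chromosome 14 from 34410734 to 34503341) encodes the type I receptor kinase. It stood at 96.9, 95.8 and 99.8 CPM in corpus vehicle libraries and 81.8, 90.2 and 87.8 CPM after inhibition. All 3 inhibited corpus libraries lay below the vehicle libraries, with a log2 change of -0.17 ± 0.0717 (SE, 95% interval -0.33 to -0.01) that did not pass (edgeR adjusted p 0.0940) except with total counts as the scale (0.0284). In antrum the levels were 94.1, 97.0 and 113 CPM against 90.1, 95.1 and 87.9 CPM, which overlap. The antral change of -0.15 ± 0.0718 did not pass (edgeR adjusted p 0.131), except with upper quartile scaling (0.0393). With TMM scaling the interval puts the fall in corpus at no more than 0.33 on the log2 scale. With total counts as the scale the estimate itself was -0.33, so this bound depends on the scaling. A stretch of 970 bases of the gene is shared with Gm17110 on the opposite strand.

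Bambi (ENSMUSG00000024232, chromosome 18 from 3507923 to 3516404) encodes a membrane decoy that resembles a type I receptor but lacks the kinase. Corpus vehicle libraries held 24, 21 and 33 Bambi counts, or 0.711, 0.670 and 1.10 CPM. Corpus inhibited libraries held 2, 4 and 7 counts, or 0.0824, 0.171 and 0.263 CPM. The groups did not overlap, and 1 inhibited library, line 8025, lay under the 3-count limit. Bambi fell by 2.21 on the log2 scale (SE 0.444, edgeR adjusted p 0.00300), and the summed counts were 4.68-fold lower (95% counting interval 2.58 to 9.18). The call held in all 17 alternatives that test the gene, with a highest adjusted p of 0.0262.

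In antrum Bambi stood at 16, 41 and 23 counts with vehicle, or 0.944, 1.35 and 0.960 CPM, and at 7, 13 and 15 counts after inhibition, or 0.246, 0.485 and 0.586 CPM. All 3 inhibited libraries were below all 3 vehicle libraries. Bambi fell by 1.32 on the log2 scale (SE 0.386, edgeR adjusted p 0.0237), and the summed counts were 2.59-fold lower (95% counting interval 1.72 to 3.97). This call was lost without vehicle line 8026 (adjusted p 0.103), without inhibited line 8025 (0.0953) or 8026 (0.0546), and without both libraries of line 8025 (0.124) or 8026 (0.150). When antral vehicle lines 8025 and 8028, those rich in ribosomal RNA, were left out, only line 8026 remained in the vehicle group. The log2 change of Bambi was then -1.62. A filter of at least 1 CPM in 3 libraries removes Bambi from the test.

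Smad6 (ENSMUSG00000036867, chromosome 9 from 63953076 to 64022059) and Smad7 (ENSMUSG00000025880, chromosome 18 from 75367529 to 75395935) encode the inhibitory SMADs, which block receptor kinases; SMAD6 acts mainly on the BMP branch and SMAD7 also on TGF-beta. Smad6 stood at 12.2, 11.5 and 9.09 CPM in corpus vehicle and 12.1, 12.2 and 9.89 CPM in corpus inhibited libraries, a log2 change of 0.06 ± 0.152 (SE, 95% interval -0.27 to 0.39; edgeR adjusted p 0.798). In both corpus groups line 8028 was the lowest. In antrum Smad6 went from 10.0, 8.80 and 10.5 CPM to 7.18, 8.54 and 9.89 CPM, a change of -0.19 ± 0.155 (interval -0.54 to 0.15; edgeR adjusted p 0.370), lower in 3 of 3 lines with overlapping groups.

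Smad7 stood at 20.4, 18.8 and 16.0 CPM in corpus vehicle and 21.3, 18.5 and 17.3 CPM in corpus inhibited libraries, a log2 change of 0.04 ± 0.121 (SE, 95% interval -0.22 to 0.31; edgeR adjusted p 0.821). The groups overlapped throughout, and the order of the lines was the same before and after. Antral Smad7 went from 15.0, 15.0 and 16.8 CPM to 20.0, 17.5 and 15.8 CPM, a change of 0.18 ± 0.123 (interval -0.09 to 0.45; edgeR adjusted p 0.285), higher in 2 of 3 lines. With total counts as the scale, which moves the median of all genes in corpus to -0.193, the corpus values of Smad6 and Smad7 turn to -0.10 and -0.11 and still do not pass.

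Smad9 (ENSMUSG00000027796, chromosome 3 from 54755582 to 54801257), which encodes the least expressed of the BMP transducers here, was near the limit of detection. It had 5 counts in corpus vehicle line 8026, 1 count each in antral vehicle lines 8025 and 8026, and 0 in the other 9 libraries. No inhibited library held a count, which allows up to 3 counts in each. No fold is given, since all groups lie near that limit.

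The Id genes encode small helix-loop-helix proteins without a DNA-binding region. Id1 (ENSMUSG00000042745) lies on chromosome 2 from 152736251 to 152737410, Id2 (ENSMUSG00000020644) on chromosome 12 from 25093799 to 25097140, Id3 (ENSMUSG00000007872) on chromosome 4 from 136143497 to 136145755 and Id4 (ENSMUSG00000021379) on chromosome 13 from 48261228 to 48266026. RefSeq promoter windows on GRCm38.p6 are reported for 7 of the 10 members. Id1 had no entry, and the windows of Bambi and Smad7 were left out here and from the counts below. In the main fit Id3, like Bambi, was called in both regions, and its relative Id2 was not called. The windows of Id3, Id2 and Smad6 are shown because they differ in the SMAD motifs they hold. Each runs 5′ to 3′ on the gene's strand, from 250 bases before the annotated start to 20 after it, with motif matches in capitals.
Id3 promoter, chr4:136143572-136143841, plus strand: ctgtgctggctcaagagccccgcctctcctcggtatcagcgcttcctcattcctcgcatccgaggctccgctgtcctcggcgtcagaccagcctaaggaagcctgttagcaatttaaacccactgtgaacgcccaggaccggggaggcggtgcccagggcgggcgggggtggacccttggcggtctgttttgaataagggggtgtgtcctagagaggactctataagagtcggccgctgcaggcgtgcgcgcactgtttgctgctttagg
Id2 promoter, chr12:25096073-25096342, minus strand: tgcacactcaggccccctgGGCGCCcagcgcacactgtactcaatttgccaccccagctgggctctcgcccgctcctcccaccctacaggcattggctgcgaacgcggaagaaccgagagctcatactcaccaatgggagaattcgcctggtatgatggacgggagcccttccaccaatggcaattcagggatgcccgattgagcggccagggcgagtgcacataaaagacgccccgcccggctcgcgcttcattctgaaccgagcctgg
Smad6 promoter, chr9:64022040-64022309, minus strand: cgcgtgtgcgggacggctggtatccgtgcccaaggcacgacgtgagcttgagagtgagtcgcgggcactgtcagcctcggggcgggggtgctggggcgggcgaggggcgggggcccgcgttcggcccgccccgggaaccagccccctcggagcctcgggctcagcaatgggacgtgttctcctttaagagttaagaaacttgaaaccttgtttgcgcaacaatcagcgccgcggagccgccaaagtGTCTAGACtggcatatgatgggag
Motifs were searched on both strands of windows of 300 bases, 250 before the start and 50 from it. G and C made up 60% (Id3) to 79.3% (Bmpr1a) of the 7 windows, above the median of 52.7% over all promoters. Motif shares below are not adjusted for this, so they cannot show more GC-rich motifs than base content would give. The GC-rich SMAD motif GGCGCC, which reads the same on both strands, occurs in 11.9% of 32851 promoters and in 4 of the 7 windows, those of Id2 (231 bases before the start), Bmpr1a, Id4 and Smad9. The longer GC-rich form GCCGNCGC, which can overlap with it, occurs in 9.76% and in 3 of the 7, those of Bmpr1a, Id4 and Smad9. The SMAD palindrome GTCTAGAC occurs in 0.213% of promoters and in the Smad6 window, 4 bases before the start. The TCF/LEF motifs CTTTGAT and CTTTGAA occur in 3.73% and 5.14%. Neither TCF/LEF motif is in any of the 7 windows. None of the SMAD motifs is in the Id3 window or in that of Bmp4, which was called in the paired fit but not in the main fit.

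Id3 had the lowest adjusted p of the members in both regions. Corpus vehicle libraries held 35.6, 39.0 and 35.4 CPM of Id3, and corpus inhibited libraries 13.8, 12.3 and 13.4 CPM. Within each group the 3 lines lay close together and the groups were far apart, with means of 36.7 ± 2.01 and 13.2 ± 0.798 CPM (SD, n = 3). Id3 fell 2.79-fold, a log2 change of -1.48 ± 0.120 (SE, 95% interval -1.74 to -1.21; edgeR adjusted p 7.86e-06).

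In antrum Id3 went from 19.2, 20.2 and 17.7 CPM to 8.56, 12.1 and 9.15 CPM. The groups did not overlap, and line 8026 was the highest in each. Means were 19.1 ± 1.25 and 9.92 ± 1.87 CPM (SD, n = 3), a 1.92-fold fall and a log2 change of -0.94 ± 0.122 (SE, 95% interval -1.21 to -0.68; edgeR adjusted p 0.000171). By line the change was -1.36, -1.67 and -1.41 in corpus and -1.17, -0.75 and -0.96 in antrum. Id3 kept its call in all 18 alternatives run for corpus, with adjusted p up to 0.000762, and in all 19 for antrum, with adjusted p up to 0.00513. Among these, the fit without the ribosomal RNA-rich antral vehicle libraries leaves only line 8026 in that group. Its log2 change of Id3 in antrum was -1.03.

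**Figure D2:**
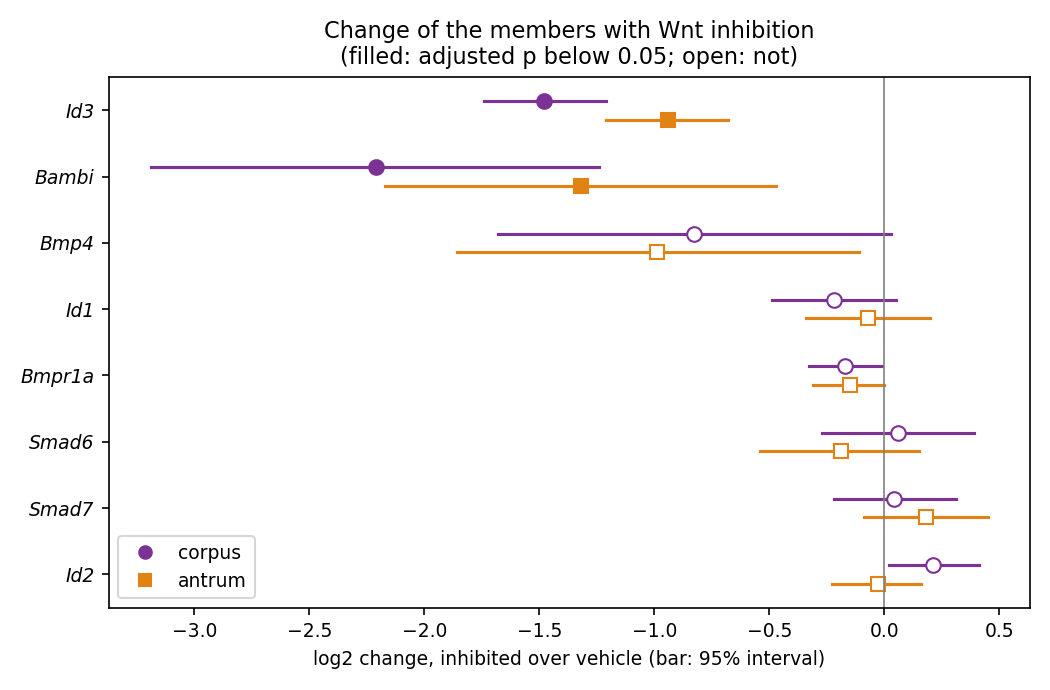
Log2 change from vehicle to inhibited (horizontal axis) of the 8 tested members, with 95% intervals from the fit of all 12 libraries; circles are corpus and squares antrum, filled where the adjusted p is below 0.05. Id3 and Bambi are filled in both regions, at -1.48 and -2.21 in corpus, and the intervals of Id1, Smad6 and Smad7 span 0 in both regions.

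Id1 stood at 127, 115 and 135 CPM in corpus vehicle libraries and 95.9, 102 and 126 CPM after inhibition. It was lower in 3 of 3 lines, but the groups overlapped, and the log2 change of -0.22 ± 0.122 (SE, 95% interval -0.49 to 0.05; edgeR adjusted p 0.197) did not pass. In the paired fit it was -0.23 and passed (adjusted p 0.0221), as it did without inhibited line 8028 (-0.32, adjusted p 0.0416). In antrum Id1 went from 99.9, 119 and 90.9 CPM to 94.4, 108 and 93.5 CPM, a change of -0.07 ± 0.122 (interval -0.34 to 0.20; edgeR adjusted p 0.698).

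Id2 stood at 89.8, 81.6 and 105 CPM in corpus vehicle and 112, 111 and 97.7 CPM in corpus inhibited libraries. It was higher in lines 8025 and 8026 and lower in line 8028, and the log2 change of 0.21 ± 0.0885 (SE, 95% interval 0.02 to 0.41; edgeR adjusted p 0.0890) did not pass. Without both libraries of line 8028 it was 0.41 and passed (adjusted p 0.000756), as it did without the inhibited (0.0172) or the vehicle library (0.00889) of that line alone. Antral Id2 went from 79.8, 83.4 and 80.9 CPM to 82.9, 79.6 and 76.0 CPM, a change of -0.03 ± 0.0890 (interval -0.23 to 0.16; edgeR adjusted p 0.806). Id4 was near the limit of detection, with 0 to 4 counts in a library and 7, 4, 3 and 3 in the corpus vehicle, corpus inhibited, antral vehicle and antral inhibited groups, and was not tested; 2 antisense or noncoding genes overlap it.

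The members were then ordered by level per length, as CPM per kb of exon. In corpus vehicle libraries the order was Id1 at 109, Id2 at 37.8, Id3 at 20.5, Bmpr1a at 15.4, Smad7 at 4.08, Smad6 at 3.41, Bmp4 at 1.73 and Bambi at 0.163 CPM per kb, followed by Id4 at 0.0194 and Smad9 at 0.00990. In the other 3 groups Bmpr1a stood above Id3, at 13.6 against 7.35 in corpus inhibited, 15.9 against 10.6 in antral vehicle and 14.3 against 5.54 CPM per kb in antral inhibited libraries. The rest of the order of the tested members was the same in all 4 groups. In corpus vehicle libraries the neighbours Smad7 (SD 0.496) and Smad6 (SD 0.511) differed by about the spread between lines, and Id4 and Smad9 could not be ordered; the other neighbours differed by more than their SDs.

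Id1, Id2 and Id3 were also summed per length, since their proteins bind the same partners. The sum was 167 ± 12.2 CPM per kb in corpus vehicle and 144 ± 10.6 in corpus inhibited libraries, and 133 ± 13.9 and 123 ± 8.11 in antrum (SD, n = 3). Id3 made up 12.4 ± 1.56% of it in corpus vehicle and 5.11 ± 0.493% in corpus inhibited libraries, and 8.02 ± 0.360% and 4.48 ± 0.563% in antrum. Id1 held 65.0 ± 0.847% and 64.3 ± 4.71% in corpus, and Id2 22.6 ± 1.30% and 30.6 ± 4.36%. Id3 was the smallest of the 3 in every library, before and after inhibition.

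**Figure D3:**
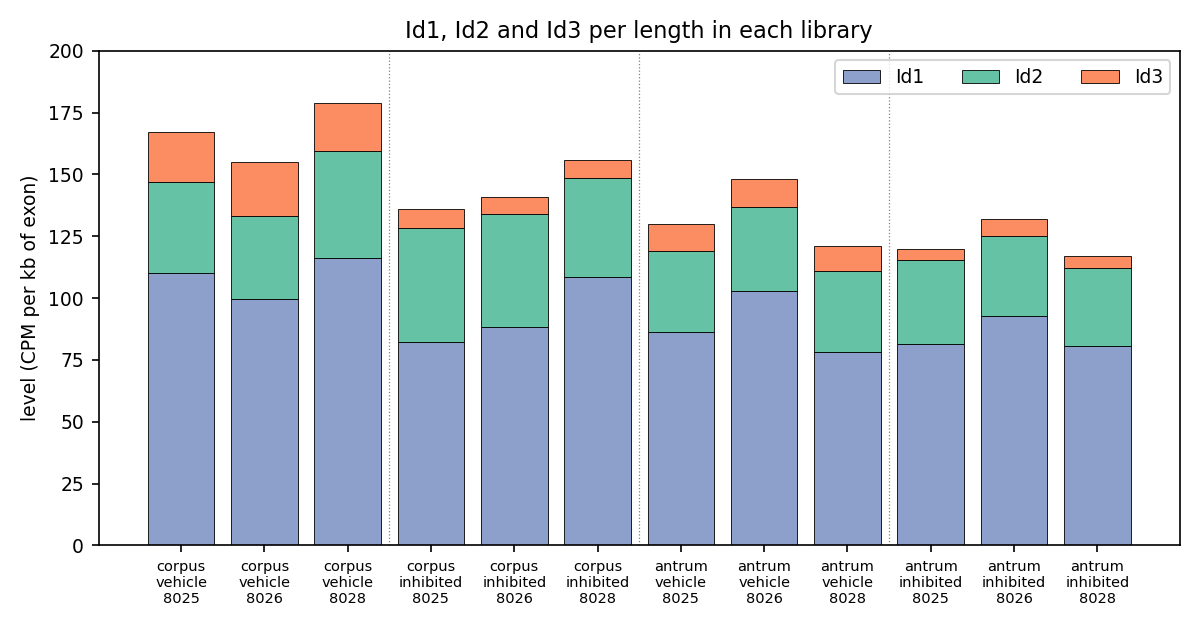
Levels of Id1, Id2 and Id3 per length, stacked, in CPM per kb of exon (vertical axis) for each of the 12 libraries (one bar each, grouped by region and treatment). The Id3 segment makes up 11.0% to 14.1% of the bar in corpus vehicle and 4.77% to 5.67% in corpus inhibited libraries.

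Endothelial markers were read beside the Id genes, which that cell type expresses strongly. Their summed level over 4 markers was 3.63 to 17.2 CPM in corpus vehicle and 7.82 to 11.1 CPM in corpus inhibited libraries, and 2.42 to 6.61 and 2.89 to 6.02 CPM in antrum; all 4 had counts in every group. Nearly all of it was Tek, at 9.67 ± 6.68 CPM in corpus vehicle libraries, while Cdh5 and Kdr stayed at or below 0.202 CPM in group mean. In corpus Pecam1 rose, from 0.211 ± 0.104 to 0.569 ± 0.142 CPM (SD, n = 3; edgeR adjusted p 0.0496). Among gastric cell types the pit cell sum ran from 446 to 584 CPM in corpus vehicle and 2053 to 3696 CPM in corpus inhibited libraries, and from 562 to 634 and 3499 to 4622 CPM in antrum, with all 5 markers counted. The chief cell sum over 4 markers ran from 140 to 373 CPM and 25.3 to 30.7 CPM in corpus, and from 95.2 to 138 and 20.2 to 43.3 CPM in antrum. The part of these cell types in the changes of Id3 and Bambi was not tested.

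Antrum was next compared with corpus in vehicle medium, which asks how the regions differ before inhibition; this comparison shares its libraries with the ones above. Id3 was 1.92-fold lower in antrum, with all 3 antral libraries (17.7 to 20.2 CPM) below all 3 corpus libraries (35.4 to 39.0 CPM). The log2 difference, antrum minus corpus, was -0.94 ± 0.118 (SE, 95% interval -1.20 to -0.68; edgeR adjusted p 0.0220). Id3 was the 1 member called of 8 in a comparison where 0.130% of all tested genes were lower in antrum and 0.0681% higher (21 and 11 genes). With total counts as the scale these were 54 and 7 genes, with RLE 9 and 8, and with upper quartile scaling 9 and 9. The call was lost without corpus vehicle line 8025 (adjusted p 0.0707) or 8026 (0.124), without antral vehicle line 8025 (0.122), and without both libraries of corpus line 8025 (0.0737) or 8026 (0.226) or of antral line 8025 (0.128) or 8028 (0.0699). Without the ribosomal RNA-rich antral vehicle lines 8025 and 8028 only line 8026 remained in that group, and the difference was -0.86. Serum differs between the regions as well. The other 7 tested members differed by -0.28 for Id1 to 0.41 for Bambi on the log2 scale, with edgeR adjusted p of 0.299 or more.

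After inhibition none of the 8 members passed between regions by edgeR's test, where 0.0124% of all tested genes were lower in antrum and 0.0495% higher. At an unadjusted p below 0.05 stood 4 members, beside 1493 of all 16152 tested genes. DESeq2 called 1 member at the adjusted threshold, Id2. Id3 differed by -0.41 ± 0.122 (SE, edgeR adjusted p 0.360), with antral libraries at 8.56 to 12.1 CPM below corpus libraries at 12.3 to 13.8 CPM. Id2 differed by -0.43 ± 0.0889 (edgeR adjusted p 0.168), with antral libraries at 76.0 to 82.9 CPM below corpus libraries at 97.7 to 112 CPM. It passed with DESeq2 (adjusted p 0.0126), without corpus inhibited line 8028 (0.0162) and with that line left out entirely (0.00213). Smad6 differed by -0.42 ± 0.154 (edgeR adjusted p 0.460), with antral libraries at 7.18 to 9.89 CPM and corpus libraries at 9.89 to 12.2 CPM, and passed without both libraries of corpus line 8028 (-0.52, adjusted p 0.0341). Bambi stood higher in antrum by 1.30 ± 0.478 (edgeR adjusted p 0.460), on 13 counts in corpus and 35 in antrum.

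The response to inhibition was compared between the regions by an interaction term, for which 0.00619% of all tested genes were called in either direction. None of the 8 members passed by edgeR's test or under any of the 27 alternatives, DESeq2 and limma-voom included. Only 1, Id3, had an unadjusted p below 0.05, beside 638 of all 16152 tested genes. Id3 fell less in antrum than in corpus by 0.53 ± 0.169 on the log2 scale (unadjusted p 0.00879, adjusted p 1.00), so a regional difference in its response was not shown. For Bambi the difference was 0.89 ± 0.595 (95% interval -0.41 to 2.20; edgeR adjusted p 1.00), for Bmp4 -0.16 ± 0.555 (-1.38 to 1.06) and for Id2 -0.25 ± 0.126 (-0.52 to 0.03).

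The rest of the pathway was read from 8 lists that hold 98 further genes, 97 of them in the table and 60 tested. In corpus 9 were higher and 15 lower, with a median log2 change of -0.12. In antrum 9 were higher and 10 lower, with a median of -0.10. Over all tested genes 15.5% were higher and 15.4% lower in corpus, and 16.3% and 13.4% in antrum. The counts of each list below stand beside these same shares and were not tested against them. In the paired fit 10 were higher and 21 lower in corpus, where 19.8% of all tested genes were higher and 23.7% lower, and 11 higher and 15 lower in antrum, where the shares were 20.6% and 20.2%. With total counts as the scale 4 in place of 9 were higher in corpus, and without both corpus libraries of line 8026 5 were higher and 9 lower there.

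Among the 5 tested BMP and GDF ligands 1 rose and 1 fell in each region. Bmp2, a ligand that epithelium can make itself, stood at 39.8, 35.4 and 28.4 CPM in corpus vehicle and 106, 88.2 and 45.3 CPM in corpus inhibited libraries, with line 8028 lowest in both groups. Its rise on the log2 scale was 1.21 ± 0.304 in corpus and 1.21 ± 0.309 in antrum (SE, edgeR adjusted p 0.0112 and 0.0123). Leaving out line 8025 or 8026 ended the Bmp2 call, in corpus (adjusted p 0.0609 and 0.0937) and in antrum (0.0976 and 0.0754), as did dropping the filter on low counts (0.0515 and 0.0534). Bmp7, another ligand, fell in corpus from 15.5 ± 1.92 to 8.64 ± 2.71 CPM (SD, n = 3) and in antrum from 15.1 ± 1.24 to 9.20 ± 1.61 CPM (edgeR adjusted p 0.00815 and 0.0194). Leaving out corpus line 8025 ended its corpus call (0.0765); its antral call was lost without vehicle line 8026, without inhibited line 8028, without both libraries of any line and without the ribosomal RNA-rich libraries (0.0503 to 0.133).

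Of 7 tested receptors and coreceptors 1 was higher and 4 lower in corpus, against 1 and 2 in antrum. Rgma, a membrane-anchored BMP coreceptor, had 72, 77 and 71 counts in corpus vehicle libraries and 6, 3 and 2 after inhibition. Its summed counts were 15.6-fold lower in corpus (95% counting interval 8.55 to 31.7) and 8.26-fold lower in antrum (5.55 to 12.7), with edgeR adjusted p of 0.000457 and 0.00102. The related coreceptor Rgmb fell on the log2 scale by 0.60 in corpus and by 0.30 in antrum (edgeR adjusted p 6.44e-05 and 0.00510). The type II receptor gene Acvr2a rose by 0.32 and 0.43 (edgeR adjusted p 0.0221 and 0.00560), and Acvr2b fell by 0.72 in corpus (0.0388) and stood at -0.56 in antrum (0.0983; called in the paired fit, 0.0348). Without some of the single corpus lines or libraries the calls of Acvr2a and Acvr2b were lost in corpus (highest adjusted p 0.135 and 0.271). With total counts as the scale Acvr2a was at 0.17 there (0.362) and at 0.34 in antrum (0.0784). Over all alternatives the corpus call was lost in 5 of 18 for Acvr2a and in 7 of 18 for Acvr2b. Without both libraries of antral line 8025 or 8026 Rgmb was not called in antrum (0.0717 and 0.0793).

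Of 5 transducers 1 rose and 1 fell in each region. Smad5, which carries the BMP signal, fell in corpus from 45.2 ± 2.15 to 33.1 ± 2.69 CPM (SD, n = 3) and in antrum from 49.8 ± 3.62 to 36.6 ± 0.831 CPM (edgeR adjusted p 0.00113 and 0.00124). Its partner Smad1 stood at 29.4 ± 0.876 and 25.6 ± 2.24 CPM in corpus and at 30.0 ± 2.63 and 28.9 ± 1.11 CPM in antrum and was not called. Tab1, an adaptor of the kinase TAK1, showed a log2 rise of 0.42 and 0.43 (edgeR adjusted p 0.00240 and 0.00209; with total counts 0.0542 in corpus).

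Of 8 tested secreted antagonists and modulators 1 was higher and 2 lower in corpus, against 1 and 1 in antrum. Nog, which encodes Noggin, was too low to be tested. It had 48 counts in corpus vehicle and 4 in corpus inhibited libraries, a ratio of 9.36 (95% counting interval 3.43 to 35.7). In antrum it had 16 and 8 counts, a ratio of 2.27 with a counting interval of 0.916 to 6.12, which spans 1. Bmp1, a protease that frees BMPs from chordin, fell by log2 values of 0.94 and 1.18 (edgeR adjusted p 0.00691 and 0.00199), and the antagonist gene Nbl1 rose by 1.00 and 1.08 (0.00312 and 0.00201). Twsg1 fell by 0.26 in corpus (0.0131), a call lost in 4 alternatives (up to 0.0821), and stood at -0.04 in antrum.

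Of 17 intracellular inhibitors of SMAD signalling 5 were higher and 4 lower in corpus, against 5 and 1 in antrum. Of all tested genes 15.5% were higher and 15.4% lower in corpus, and 16.3% and 13.4% in antrum. Tgif2, a corepressor, fell in corpus from 8.50 ± 0.983 to 1.84 ± 0.158 CPM (SD, n = 3) and in antrum from 6.78 ± 1.17 to 1.37 ± 0.653 CPM (edgeR adjusted p 0.000111 and 8.98e-05). Smurf1, a ubiquitin ligase for SMAD1 and SMAD5, was at 111 ± 6.32 and, after inhibition, at 171 ± 20.0 CPM in corpus (SD, n = 3), and rose in antrum from 110 ± 8.32 to 163 ± 9.61 CPM (edgeR adjusted p 0.000377 and 0.000723). Tob1, a repressor of BMP signalling, showed a log2 rise of 0.63 and 0.74 (edgeR adjusted p 0.00380 and 0.00149; 0.0521 in corpus without both libraries of line 8026). Wwp1, another ubiquitin ligase, fell by 0.43 in corpus (0.00112) and stood at -0.18 in antrum (0.0988; called in the paired fit, 0.0311, and with upper quartile scaling, 0.0392).

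Of the 3 E protein genes, whose products the ID proteins bind, 2 fell in each region. Tcf12 fell in corpus from 104 ± 16.3 to 58.9 ± 5.51 CPM (SD, n = 3) and in antrum from 98.5 ± 4.11 to 62.4 ± 1.47 CPM (edgeR adjusted p 0.000142 and 0.000617). On the log2 scale Tcf3 fell by 0.56 and 0.72 (edgeR adjusted p 0.00614 and 0.00130), in corpus not without both libraries of line 8025 (0.0581) or 8026 (0.0540). Tcf4 stood at 0.05 and 0.06 and was not called. These names are E protein genes and not the TCF factors of Wnt signalling.

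Of 15 other known BMP targets, among them Msx1, Msx2 and Atoh8, 3 could be tested (Atoh8, Gata3 and Runx2), and edgeR called 0 of them in either region, also at an unadjusted p of 0.05. Atoh8 stood at -0.67 ± 0.553 in corpus and -0.53 ± 0.537 in antrum (log2, SE), and Gata3 at 0.52 ± 0.445 and 0.93 ± 0.527. Of 12 genes of the TGF-beta and activin branch 0 were higher and 1 lower in corpus, against 0 and 2 in antrum. Tgfb3, a TGF-beta ligand, fell in corpus from 97.4 ± 15.2 to 9.89 ± 2.68 CPM (SD, n = 3) and in antrum from 92.4 ± 17.6 to 14.4 ± 1.65 CPM (edgeR adjusted p 2.54e-06 and 5.05e-06). The call of the receptor gene Tgfbr1 in antrum (-0.44, edgeR adjusted p 0.0452) was lost in 10 of 19 alternatives (up to 0.212). In corpus Tgfbr1 stood at -0.36 and was not called, but passed in 4 of 18 alternatives, among them the paired fit (-0.38, adjusted p 0.0151) and total counts as the scale (-0.52, 0.0327), with adjusted p from 0.000893 to 0.442.

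**Figure D4:**
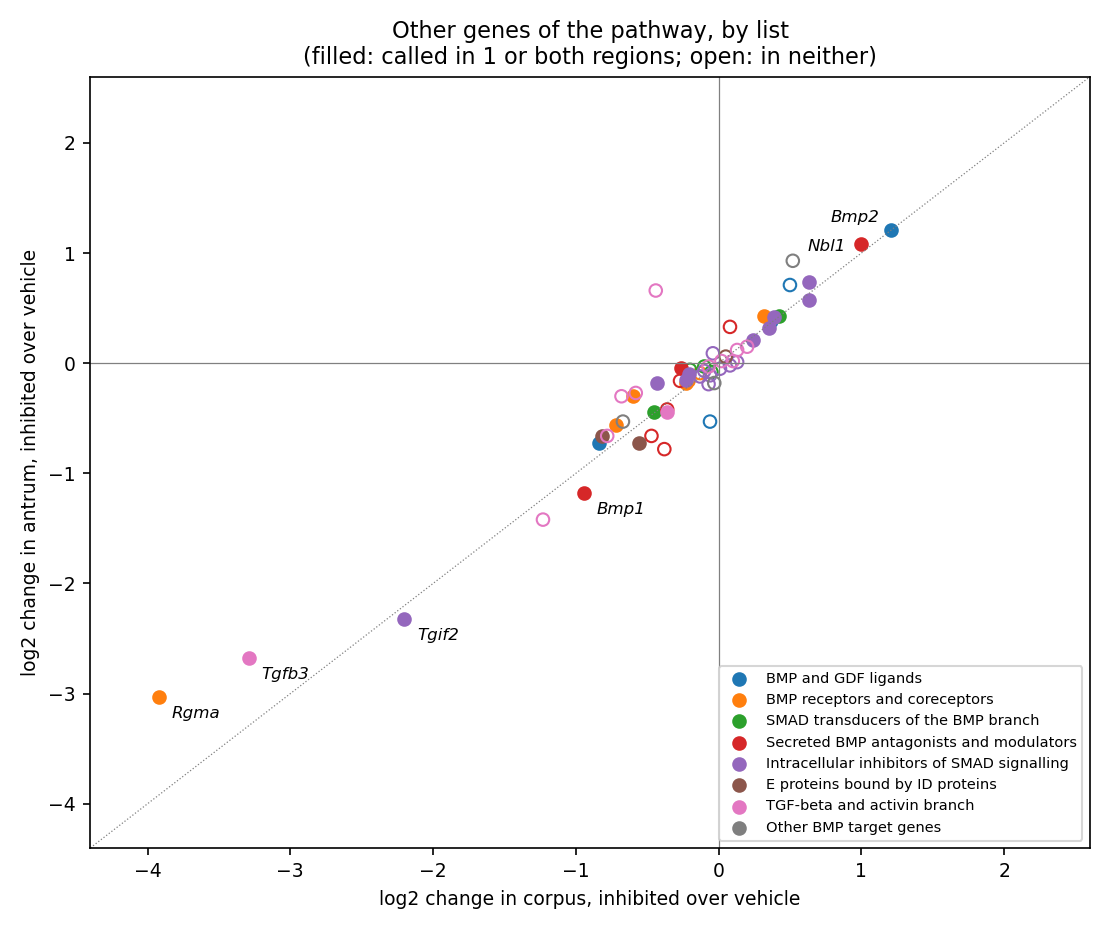
Log2 change from vehicle to inhibited in corpus (horizontal axis) and antrum (vertical axis) for the 60 tested genes of the 8 pathway lists; colours are the lists, filled points were called in 1 or both regions, and the dotted line marks equal change. Rgma, Tgfb3 and Tgif2 lie far from the origin at the lower left, at -3.92, -3.29 and -2.20 in corpus, and Bmp2 lies at the upper right with 1.21 in each region.

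Across the 12 libraries the log2 levels of Id3 were most like those of Wdr61 (Pearson's r = 0.983), Gemin8 (0.974) and Repin1 (0.967), among 11031 genes with a mean of at least 5 CPM. Those of Bambi were most like Tmprss4 (r = 0.961), Tmem131l (0.960) and Lfng (0.957). For Bmp4 the nearest were Klc3 (0.934), Gpm6b (0.925) and Pik3r4 (0.925). The libraries share their 3 lines, 2 treatments and 2 regions, so these values describe the pattern and are not tested.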

How the data were processed

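Poly(A)-selected RNA of 12 libraries was sequenced. The authors deposited one table of expected counts, per the file headers. Its build is GRCm38, and RSEM 1.3.3, STAR 2.7.8a, cutadapt 2.3 and FastQC 0.11.8 are listed in the submitters' processing notes. Their settings, the annotation release and the strandedness were not given in the sources used here. The values were whole numbers already. Of 55426 rows, 5 that name no gene held 2 counts in all and were left out.

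Counts were tested with edgeR 4.0.16 in R 4.3.3: TMM scaling, filterByExpr by group and robust quasi-likelihood fitting of the 12 libraries in 4 groups (8 residual degrees of freedom), two-sided, with Benjamini-Hochberg adjustment over 16152 genes at 0.05 and no minimum fold. The code was tested on simulated data. Positions and exon lengths come from GENCODE on GRCm38, promoters from RefSeq on GRCm38.p6. Likeness used log2 CPM with a prior count of 2.

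Within a region a line pairs its vehicle and inhibited libraries, because the protocol gives both treatments to every line. The correlation of their deviations from the group means was 0.400 to 0.729. Between regions, libraries with one number gave -0.348 to 0.485 and were not paired. Libraries of one group differed by more than sampling noise. The lines are described as independent, but not as lines from separate mice.

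The alternatives changed the scaling (total counts, RLE, upper quartile), the filter (none, or 1 CPM or more in 3 libraries), the tool (limma-voom of limma 3.58.1, DESeq2 1.42.0), added a block on the line (the paired fit), kept the compared libraries alone, or left out a library, a line, or the ribosomal RNA-rich antral vehicle libraries. The members, lists and alternatives were chosen with earlier results of these data known. Of the genes first listed, 2 are not reported here and stand outside the list counts; all genes stayed in the fits. The text names all 10 members, up to 4 called genes of each pathway list with the largest change, Axin2 and Lgr5, and the 3 genes most like a member; Epcam, Cdh1, Smad1, Nog, other marker genes and uncalled relatives were named after their values were seen.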

Additional observations from a re-analysis of the deposited data

How the results depend on the processing

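With 3 lines per group, small changes such as those of Id1, Bmpr1a and Smad6 are limited by the spread between lines, and Bambi, Id4 and Smad9 by depth. The number of members called in corpus was 4 in place of 2 with total-count scaling and 4 with the replicate block on the line (paired fit). With these 23.1% and 23.7% of all tested genes were called lower in place of 15.4%. The number in corpus was 3 with limma-voom and 1 with at least 1 CPM in 3 libraries. Without single libraries or lines it ran from 2 to 4, with Id2 called higher where either or both corpus libraries of line 8028 were left out. In antrum the number was 1 in place of 2 with the filter at 1 CPM and ran from 1 to 2 without single libraries or lines. With the replicate block it was 3, where 20.2% of all tested genes were lower in place of 13.4%. It was also 3 with upper quartile scaling, where 17.5% were lower, and with only the antral libraries in the fit. Between regions in vehicle the number was 1 in the main fit, and 0 to 1 without single libraries or lines. After inhibition it was 1 in place of 0 with DESeq2, and 0 to 2 without single libraries or lines. The fewer libraries or genes tested are part of these alternatives; otherwise the cause was not tested.

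Members that turned direction were not called before or after. With total counts Smad6 and Smad7 in corpus stood at -0.10 and -0.11, and Bmpr1a between regions in vehicle at -0.03. The regional difference in response was -0.02 for Bmpr1a with upper quartile scaling and 0.08 for Bmp4 with limma-voom. Without antral vehicle lines 8025 and 8028 it was -0.06 for Id1 and 0.23 for Bmp4, Bmpr1a differed between regions in vehicle by -0.01, and Twsg1 in antrum stood at 0.02. Without single libraries or lines, the log2 values ran from -0.03 to 0.18 for Smad6 and -0.03 to 0.15 for Smad7 in corpus, -0.15 to 0.07 for Id1 and -0.07 to 0.01 for Id2 in antrum, -0.03 to 0.12 for Bmpr1a and -0.44 to 0.03 for Bmp4 between regions in vehicle, -0.19 to 0.01 for Smad7 and -0.62 to 0.32 for Bmp4 between regions after inhibition, and -0.05 to 0.13 for Bmpr1a and -0.48 to 0.46 for Bmp4 in the difference of response.

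With total counts the share of higher calls among all genes was 26.4% in place of 50.1% in corpus and 44.4% in place of 55.0% in antrum, and 43.6% in antrum with upper quartile scaling. Between regions in vehicle it was 34.4%, against 47.1% with RLE, 50.0% with upper quartile and 11.5% with total-count scaling, and after inhibition 80.0%, against 100% with upper quartile and 66.7% with total-count scaling. The replicate block also brought Bmp4 in both regions and Id1 in corpus past the threshold, as given above, and among the members it changed no other call.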
